A study of Triticum aestivum with 4 samples.

Results

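The genes described here act in RNA processing and translation. They were taken from lists of differentially methylated regions in wheat seedlings by the words of each gene's description: ribosomal protein, translation, elongation factor, tRNA, RNA helicase, splicing, pentatricopeptide, RNA-binding, ribonuclease or exosome. Descriptions that also held 30S, 50S, chloroplast or mitochondrial were left out. This gave 13 of 3119 listed regions, each assigned to a different gene, so that 13 genes are covered. The rule itself uses no measured value, but it was chosen with earlier results of these data known. Only 468 listed regions belong to a gene with a description, so a gene of the same function without a description cannot be among the 13.

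Seeds of winter wheat line SE15, with a water content of 13.6%, were treated with ultrasound in open Petri dishes (30 kHz, 70 W, 5 min, at 4 cm) or left untreated, with 100 seeds in each group. Both groups then germinated at 20 °C in the dark, and seedlings were sampled at 7 days. The labels name 2 libraries per group, of which 1 per group, number 1 of each, has levels here. The labels do not say how many seedlings went into a library. Every level is thus an unreplicated measurement, and neither a test between treatments nor a p-value is given. "Higher" and "lower" mean the ultrasound library relative to the control. The control column is headed K1, a letter left unexplained by the labels, and was taken as the control because it stands beside the ultrasound column and the labels name no further group.

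Plants methylate cytosine in 3 sequence contexts, CpG, CHG and CHH, where H is A, C or T. CpG and CHG methylation is copied onto the new strand after replication by maintenance methyltransferases, whereas CHH methylation, on asymmetric sites, has to be placed anew. CpG methylation inside genes is common in plants, while CHG and CHH methylation are best known from transposons and repeats. Cytosolic ribosomes are built from 40S and 60S subunits, each made of ribosomal RNA and ribosomal proteins. Translation factors load and move the ribosome, modifying enzymes act on tRNA, helicases and splicing factors remodel and join transcripts, and pentatricopeptide repeat proteins bind and process RNA mainly in plastids and mitochondria.

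Of the 13 regions, 8 were listed in CHG, 3 in CHH and 2 in CpG. No gene had a second listed region in any context, and no other listed region of any context lay within 100 kb of any of the 13. The regions overlapped their gene in 10 cases, or 76.9%, against 51.1% of all listed regions. That share depends on context, at 59.8% of all CHG regions and 28.1% of all CHH regions. Of the 8 CHG regions here, 7 overlapped their gene. With 13 regions, the difference in overlap was not tested. One region lay upstream and 2 lay downstream. Positions are those of the lists, whose genome build is not given in the sources used here. In CHG, the 8 regions were 983 to 1500 bp long, within the range of all CHG regions (median 1364 bp). The B subgenome held 7 of the regions, the A subgenome 4 and the D subgenome 2, beside 1030, 967 and 1032 of all listed regions.

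Both libraries had a level in 12 of the 13 regions. With ultrasound, 8 of the 12 were lower (66.7%; 95% exact Clopper-Pearson interval 34.9 to 90.1, which covers the counting of regions only) and 4 were higher. Over all listed regions 76.8% were lower and 23.2% higher, and the interval includes that value. In CHG, 6 of 8 regions were lower, beside a background of 78.2%, and 5 of the 7 CHG regions that overlapped their gene, beside 80.6%. The single CpG region with levels was lower, where the background was 71.7%. In CHH, 1 of 3 regions was lower, beside 77.1%, and the other 2 were higher, beside 22.9%. The intervals of the shares lower in CHG (34.9 to 96.8) and CHH (0.840 to 90.6) include their backgrounds.

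The median difference of the 12 regions, ultrasound minus control, was -7.31 percentage points (order-statistic interval -12.4 to 12.3), against -10.1 over all listed regions and -9.01 over the 392 other described regions. The mean difference was -0.187 points, because the 4 increases were on average larger than the 8 decreases. The decreases ran from -19.1 to -5.04 points and the increases from 11.1 to 35.9 points. Differences of at least 10 points were split evenly, with 4 lower and 4 higher. Over all listed regions 50.5% were lower and 18.6% higher by at least 10 points.

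**Figure D1:**
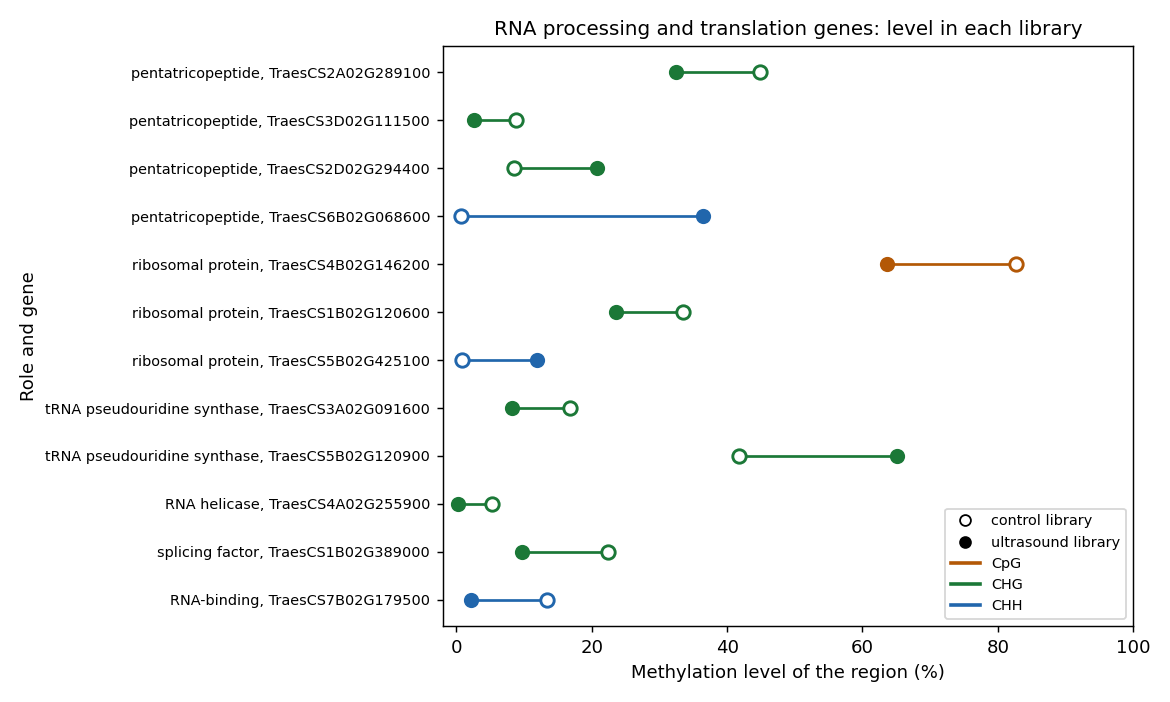
Methylation level (%, x axis) of the 12 regions with a level in both libraries, grouped by role (y axis). Open points are the control library, filled points the ultrasound library, the line joins the values of 1 region and its colour gives the context. The longest line is the CHH region of a pentatricopeptide repeat gene, from 0.625% to 36.5%, and 8 of the 12 filled points lie left of their open point.

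Pentatricopeptide repeat genes were the most frequent family, with 4 regions, of which 2 were higher and 2 lower. These proteins carry tandem repeats that each contact RNA, and in plants they serve in editing, cleavage and splicing of organelle transcripts. The gene described after the Arabidopsis protein At2g01860 (TraesCS6B02G068600) had a CHH region that was at 0.625% in the control and at 36.5% with ultrasound, a difference of 35.9 points. This was the fifth largest of all 668 CHH differences in the direction of an increase. The region (6B, start 46435321, end 46435624, 304 bp) was placed 2978 bp upstream of the gene, and the largest distance of any listed CHH region was 2980 bp. The assignment of this region to the gene therefore sits at the edge of the distance the lists allow.

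The other pentatricopeptide regions were CHG regions that overlapped their gene. The gene described as At5g61800 (TraesCS2A02G289100) was at 44.9% in the control and at 32.5% with ultrasound (2A, start 497438733, end 497439799), a difference of -12.4 points. TraesCS3D02G111500, described as At4g14820, was at 8.74% and 2.56%. TraesCS2D02G294400, described as a putative At5g37570 protein, had nearly the same control level, 8.45%, but was at 20.7% after ultrasound, 12.3 points higher. The last 2 genes thus started within 1 point of each other in the control library and ended on opposite sides of it. Among the CHG regions with a control level within 5 points of theirs, 74.0% and 74.1% were lower.

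Ribosomal protein genes had 3 regions, 1 in each context. These proteins form the ribosome together with its RNA. The gene described as ribosomal protein S7 (TraesCS4B02G146200), a small-subunit protein, had the largest decrease of the 12 regions. Its CpG region overlapped the gene (4B, start 209112000, end 209113179) and was at 82.7% in the control and at 63.7% with ultrasound, a difference of -19.1 points. The description does not say which ribosome the protein belongs to, cytosolic or organellar, and leaving this region out as a possible organelle gene name gave a share of 63.6% lower and a median of -6.19 points over the other 11 regions. Its difference ranked 235th from the largest decrease among 480 CpG regions, of which 344 were lower. It was close to the median CpG difference of -18.3 points. Of the 58 other CpG regions with a control level within 5 points of this region's, 35 (60.3%) were lower, with a median difference of -19.3 points.

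The genes for 40S ribosomal proteins, which belong to the small subunit of the cytosolic ribosome, went in opposite directions. A CHG region overlapping the gene for S4 (TraesCS1B02G120600) was at 33.4% in the control and at 23.5% with ultrasound. A CHH region located 374 bp downstream of the gene for S12 (TraesCS5B02G425100; 5B, start 601323957, end 601324315) was at 0.867% and 12.0%, so 11.1 points higher. Both higher CHH regions, this one and that of the pentatricopeptide gene TraesCS6B02G068600, were outside the gene and below 1% in the control. Of all CHH regions placed upstream of a gene 19.2% were higher, and of those downstream 27.2%. A CHH region this low in the control has almost no room to be lower: of the CHH regions with a control level within 5 points of theirs, 14.7% and 12.2% were lower. The direction of these 2 regions is thus the direction of most regions listed from that level.

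The genes for tRNA pseudouridine synthases, enzymes that convert uridine in tRNA to its isomer pseudouridine, both had CHG regions that overlapped the gene, and their directions differed. TraesCS5B02G120900 was at 41.7% in the control and at 65.1% with ultrasound (5B, start 214939514, end 214940504), a difference of 23.4 points. TraesCS3A02G091600 was at 16.7% and 8.29% (3A, start 57871022, end 57872170), a difference of -8.43 points. The higher of these ranked 83rd from the largest increase among 1557 CHG regions, of which 339 were higher. It also went against the regions that started where it did, since 183 of 200 other CHG regions with a control level within 5 points of it were lower, with a median difference of -14.7 points. The lower one was close to the median of its like, -8.77 points over 358 regions. The control level is part of each difference, so these values describe the lists and test nothing.

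The remaining roles had a single region each. DEAD-box ATP-dependent RNA helicase 16 (TraesCS4A02G255900), of a family that unwinds RNA with ATP, had the smallest difference and the lowest ultrasound level. Its CHG region, overlapping the gene (4A, start 567671292, end 567672791), was at 5.21% in the control and at 0.166% with ultrasound. This left 3.18% of the control level, a ratio taken from a low control level of unknown depth. Of the 357 other CHG regions with a control level within 5 points of it, 203 (56.9%) were lower, with a median difference of -3.00 points. A splicing factor subunit gene (TraesCS1B02G389000), whose product acts in the removal of introns, was at 22.4% and 9.75% in a CHG region 1365 bp downstream (1B, start 622695283, end 622696265). The gene for an RNA-binding Ras-GAP SH3 binding protein (TraesCS7B02G179500), related by name to a human protein of stress granules, was at 13.5% and 2.21% in a CHH region overlapping the gene (7B, start 264062448, end 264062783). That CHH difference, -11.3 points, was close to the median of all CHH regions, -11.2 points. Of the 255 other CHH regions with a control level within 5 points of it, 254 were lower.

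Translation factors were represented by eukaryotic translation initiation factor 3 subunit J alone (TraesCS6A02G066400), part of the complex that prepares the small ribosomal subunit for initiation. Its CpG region, overlapping the gene, had a level of 17.3% in the ultrasound library and none in the control library, so it has no direction (6A, start 35541126, end 35544078, 2953 bp). No listed region matched elongation factor, ribonuclease or exosome, which says only that no described gene of these names is in the lists.

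**Figure D2:**
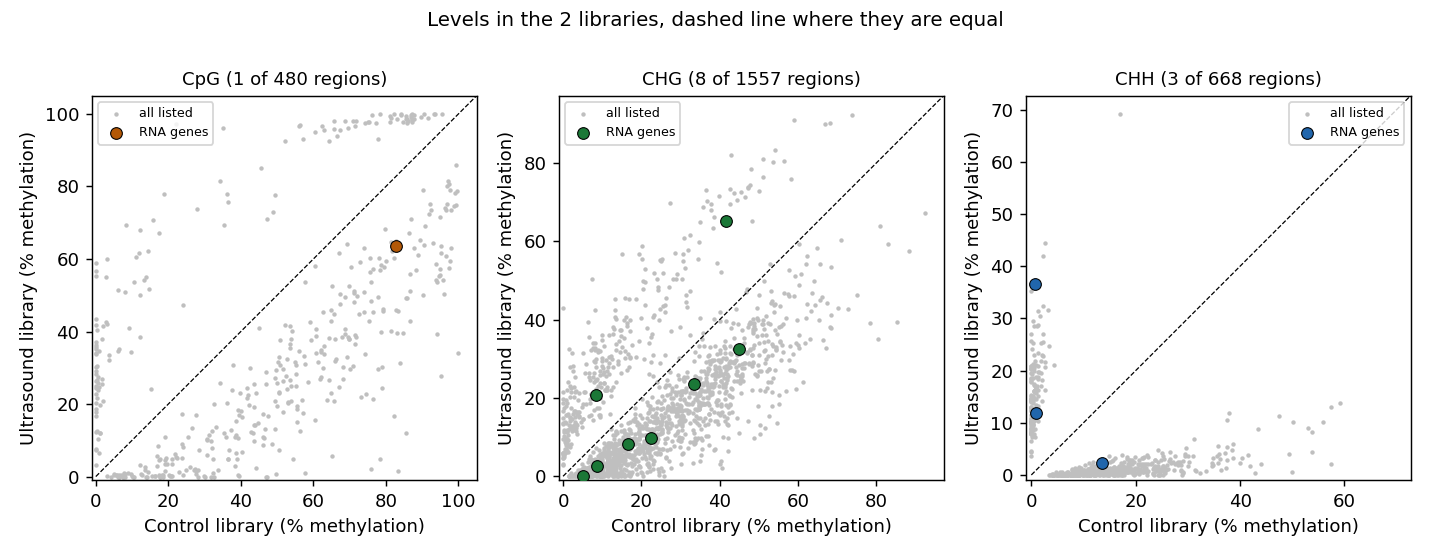
Level in the control library (%, x axis) against the ultrasound library (%, y axis) for each region with both levels, in CpG, CHG and CHH. Grey points are all listed regions, large points the 1, 8 and 3 regions of RNA processing and translation genes, and the dashed line marks equal levels. The large points lie within the 2 bands of grey points on either side of the line, 8 below it and 4 above it.

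In the plot of both levels, few regions lie near the line of equal levels. The lists hold regions that the authors selected, by their names with a chi-square test and edgeR. Of the 2705 regions with both levels, 209 differed by less than 5 points, and the smallest difference among the 12 regions was 5.04 points. That each of the 12 regions differed between the libraries follows from their being listed and is no result about these genes. Near-identical copies are a further limit. Wheat carries most genes in A, B and D copies, and pentatricopeptide repeat and ribosomal protein genes form large families. How reads that match several copies were treated is not given in the sources used here, so the level of a single copy is uncertain.

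Genes of organellar translation, the ones whose descriptions held the left-out words, were compared next. They had 7 regions in 5 genes, all for ribosomal proteins. All 5 regions with levels were lower, beside 76.8% of all listed regions, with a median difference of -17.4 points. Of these, 3 were CpG regions, with differences of -15.9, -19.6 and -20.2 points around the CpG median of -18.3, and the CHG region, at -8.23 points, was near the CHG median of -8.87. The genes for plastid S14 (TraesCS2B02G487300), S4 (TraesCS3D02G057700) and L17 (TraesCS5B02G481100) had CpG regions at 24.2%, 33.3% and 78.6% in the control, and at 8.26%, 13.7% and 58.4% with ultrasound. The gene for mitochondrial S9 (TraesCS2D02G133900) had a CHH region at 17.4% and a listed 0%. The S14 and S4 genes carry the names rps14 and rps4 in the lists, which are names of genes that plastid genomes encode. The S14 gene accounts for 2 of the 5 regions, since its CHG region, at 14.4% and 6.21%, overlaps its CpG region. Unlike the 12 regions, those of S14 and S4 had other listed regions within 100 kb, 4 and 3 of them, S14's other region included, all lower. These neighbours are not as many separate genes. Apart from its own region, those of S14 belong to 1 gene without a description. Those of S4 include regions of a gene for photosystem I assembly protein Ycf3, 1186 and 5926 bp away. The gene for S15 (TraesCSU02G264600), on unplaced sequence, had the other 2 regions, each with a level in 1 library only, 41.9% with ultrasound in CpG and 65.3% in the control in CHG. With 5 regions against 12, no difference between these lists was tested.

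A wider list of words for RNA metabolism (rRNA, ribonucleoprotein, polyadenylation, pseudouridine, RNA polymerase and the like) matched 11 further regions, of which 10 had levels. Of these, 8 were lower (80.0%, near the 76.8% of all listed regions) and 2 higher, with a median difference of -13.9 points. These totals include 3 regions of Mediator and TFIID genes, of the transcription machinery, described under other observations. Without them, 6 of 7 were lower and the median was -12.5 points. All 5 CHH regions with levels were lower, beside 77.1% of all CHH regions, and each was below 2% in the ultrasound library, where all CHH regions had a median of 1.03%. The 77.1% is not a comparison at like control levels, which was not made for these 5 regions. Around the RNA-binding gene's CHH region, at 13.5% in the control, 254 of 255 other CHH regions were lower. Of the 5 regions, those at 8.87%, 15.7% and 16.8% in the control lie within 5 points of that level. Being lower is thus no result about their genes. The regions at 4.00% and 28.2% lie outside that range. Around the S12 gene's CHH region, at 0.867% in the control, 26 of 177 other CHH regions were lower. The region at 4.00% lies within 5 points of that level and went with the smaller share there, which was not tested. The 5 regions included that of a small nuclear ribonucleoprotein-associated protein of the spliceosome (TraesCS2B02G270200), at 28.2% in the control and at 1.92% with ultrasound. The gene for subunit 2 of the cleavage and polyadenylation specificity factor (TraesCS5A02G453700), which acts in forming the 3′ end of mRNA, was at 15.7% and 0.452%. The gene for the U2 ribonucleoprotein A′ (TraesCS4A02G329300), part of the particle that recognises the branch site, was at 4.00% and 0.250%. An RNA polymerase gene (TraesCS5D02G171600) was at 16.8% and 0.832%, and an rRNA N-glycosidase gene (TraesCS5A02G475300), of a family that inactivates ribosomes, at 8.87% and 0.167%.

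Pseudouridine synthases appeared in this list too, again in CHG and in both directions. A gene described only as pseudouridine synthase (TraesCS5B02G444700) was at 51.0% in the control and at 81.2% with ultrasound, 803 bp upstream of the gene, a difference of 30.2 points and the 24th largest CHG increase. Another (TraesCS5D02G448100) was at 18.8% and 6.25%, 92 bp upstream. Over the 4 pseudouridine synthase regions of both lists, the 2 with control levels of 41.7% and 51.0% were higher, and the 2 with control levels of 16.7% and 18.8% were lower. Both higher ones lay on chromosome 5B but far apart, with starts at 214939514 and 617143387. Grouping these 4 across the lists was done after their values were seen.

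**Figure D3:**
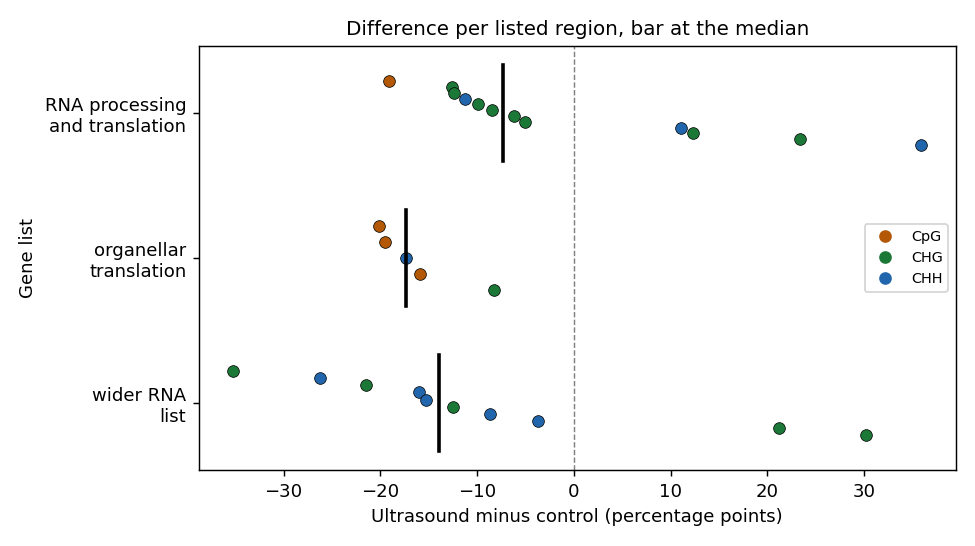
Difference per region, ultrasound minus control in percentage points (x axis), for the 12, 5 and 10 regions with levels of the 3 gene lists (y axis). Each point is a region, coloured by context, and the bar is the median, at -7.31, -17.4 and -13.9 points. The lists differ in context, with 1, 3 and 0 CpG regions, and over all listed regions the median was -18.3 points in CpG, -8.87 in CHG and -11.2 in CHH, so the bars are not a comparison of like regions. Points right of the dashed line at 0 are higher in the ultrasound library: 4 of RNA processing and translation, 0 of organellar translation and 2 of the wider list.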

How the data were processed

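Genomic DNA of seedlings was converted enzymatically and sequenced, per the labels' protocols, although the library titles name bisulfite sequencing. The tools named, without roles, are Bismark 0.23.1, edgeR, Trim Galore 0.6.7 and FastQC 0.11.9, per the submitters' processing notes. The authors deposited a list of regions for each of the 3 contexts, with the methylation of a region as a percent in each library, and their names point to a chi-square and an edgeR selection. A count of 2 lists stands beside all regions. Which thresholds, coverage and genome build were used is not given in the sources used here, so the depth behind each level is unknown and precision cannot be stated.

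Members were found by words in the descriptions, in any case, and placed in 8 role groups by a fixed order of words. The members and lists were chosen with earlier results of these data known. Every member is named with its levels, and positions are given for up to 2 members per role with the largest differences. Differences are ultrasound minus control. Regions lacking 1 or both levels (414 of 3119) entered no direction or median. Similar control level means within 5 points in the same context. Intervals are exact binomial for shares and from order statistics for medians, at 95%, and cover counting of regions only; the computations were tested on simulated data. Python 3.11.15, pandas 2.3.3 and SciPy 1.17.1 were used. Alternatives were minimum differences of 5, 10 or 25 points, each gene once, merging within 10 kb, overlapping regions only, other word rules, each context alone, the mean, and leaving out the most distant CHH region. The minimum of 5 points and the last of these were added after the data were seen.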

Additional observations from a re-analysis of the deposited data

How the results depend on the processing

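The share of RNA processing and translation regions that were lower, 66.7%, was 100% of 1 region in CpG alone, 33.3% of 3 in CHH alone and 0% of the 1 region that differed by at least 25 points. The median difference, -7.31 points, was -19.1 points in CpG alone and turned positive in CHH alone (11.1 points) and at a minimum of 25 points (35.9 points). These are settings with 1 to 3 regions. The pentatricopeptide median, 3.04 points, was -6.19 points over regions that overlap their gene, which leaves out the CHH region. Without that region, an alternative chosen after seeing the data, 72.7% were lower and the median was -8.43 points. At a minimum of 10 points the share was 50% and the median -0.0804 points. The other alternatives gave 63.6% to 77.8% lower and medians of -9.90 to -6.19 points, with a mean of -0.187. Counting each gene once, merging, and leaving out descriptions matched only through post-translational, translationally or deoxyribonuclease changed nothing, as each gene has 1 region and no description held those 3 words. Taking in the organelle words gave 76.5% of 17 regions and a median of -9.90 points. The splicing region does not overlap its gene, so that alternative gave no value there. No paired analysis was possible because 1 library per group was analysed, and for the same reason no replicate could be left out. The unknown depth limits every level.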

Other observations

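The wider list also matched 4 Mediator and TFIID regions, of the transcription machinery, which the words RNA polymerase and initiation factor brought in. The DNA-directed RNA polymerase gene named above (TraesCS5D02G171600) belongs to that machinery too and is not among these 4. Mediator is the complex that links transcription factors to RNA polymerase II, and TFIID is the factor that binds core promoters. A CHG region 668 bp downstream of a Mediator subunit 13 gene (TraesCS4A02G315800) was at 53.3% in the control and at 18.1% with ultrasound, the 18th largest of 1557 CHG differences in the direction of a decrease. A second Mediator subunit 13 gene (TraesCS2D02G494900) had a CHH region listed at 0% in the ultrasound library and without a level in the control library. A Mediator subunit 23 gene (TraesCS6A02G294100) was higher in a CHG region overlapping it, at 27.1% and 48.3%. TFIID subunit 12b (TraesCS3B02G395300) was at 37.4% and 15.9% in a CHG region overlapping the gene. Each value is a single measurement.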
